A study of Homo sapiens with 2 samples.

Results

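The ATP-binding cassette (ABC) transporter family was taken as every protein-coding gene of the deposited gene tables whose symbol is ABC, a subfamily letter A to G and a number. The rule found 47 of 36953 genes: 13 in subfamily A, 9 in B, 12 in C, 4 in D, 1 in E, 3 in F and 5 in G. ABC proteins share a nucleotide-binding domain that hydrolyses ATP. Most couple it to membrane-spanning segments that move lipids, bile salts, peptides, metal complexes or drugs across a membrane, while the E and F proteins lack those segments and act at the ribosome. Several members pump drugs out of cells and are known for resistance in tumour cells and for barrier function in the gut epithelium.

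Polyadenylated RNA was sequenced from MIP101, a human colorectal cancer line from a liver metastasis that is sensitive to 5-fluorouracil (5-FU), and from MIP/5FU, its resistant derivative. MIP/5FU is 1 clone, obtained by growing MIP101 in increasing amounts of the drug. Its IC50 for 5-FU is 10-fold that of MIP101, and its cultures were maintained in 5 µM drug. MIP101 was maintained without it. Both cultures used for RNA grew for about 48 hours with neither drug nor antibiotics, so the libraries compare drug-free cells. The question for this family was which transporters the resistant clone and its parent express, and at what level.

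There was 1 library of each line. No difference below therefore has a replicate check or a test, and culture-to-culture variation cannot be told apart from the difference between the lines. Genes held 200141071 reads in MIP101 against 109693681 in MIP/5FU. The colorectal epithelial markers summed to 8214 RPM (reads per 1000000 reads assigned to genes) in MIP101 and 8988 in MIP/5FU, most of it from the keratins KRT8 and KRT18. Of the 12 compared in that list, KRT20 was 6.77-fold higher in MIP/5FU (6.17 to 7.44), while LGALS4 was 2.47-fold lower (1.94 to 3.21) and VIL1 2.34-fold lower (2.28 to 2.41), so the near-equal sums hide shifts both ways. Hepatocyte markers summed to 8.47 and 7.03 RPM, of which SERPINA1 made up 6.72 and 3.90. The other 3 compared had ratios above 0, HPX being 2.09-fold higher (1.63 to 2.69), and APOA2 and TTR were listed at 0 in both libraries. Blood markers summed to 1.81 and 2.79 RPM, with HBB listed at 0. Endothelial and fibroblast markers summed to 21.1 and 17.0 RPM, with DCN listed at 0. In that list COL3A1 was 23.6-fold lower (17.4 to 33.9), from 1659 to 38 reads, and PDGFRB made up 16.3 of the 17.0 RPM in MIP/5FU. The part of these shifts in the results for the family was not tested. In bulk RNA, fewer cells expressing a gene and less RNA per cell cannot be told apart.

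Of the 47 members, 35 had at least 100 reads over both libraries and were compared. The authors called 26 members expressed in both lines, 2 in MIP101 only (ABCA12 and ABCC2), none in MIP/5FU only and 19 in neither. Over all genes they called 38.0% expressed in MIP101 and 36.6% in MIP/5FU. Levels between genes are given as the authors' normalized coverage per base, which is per length. Ratios are MIP/5FU over MIP101, computed from each gene's share of gene reads after adding 0.5 reads. Each ratio has an exact conditional binomial 95% interval. These intervals cover counting error only. Reads amplified by PCR and lacking molecular identifiers do not each stand for 1 molecule, so the intervals can be too narrow even for counting error.

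**Figure D1:**
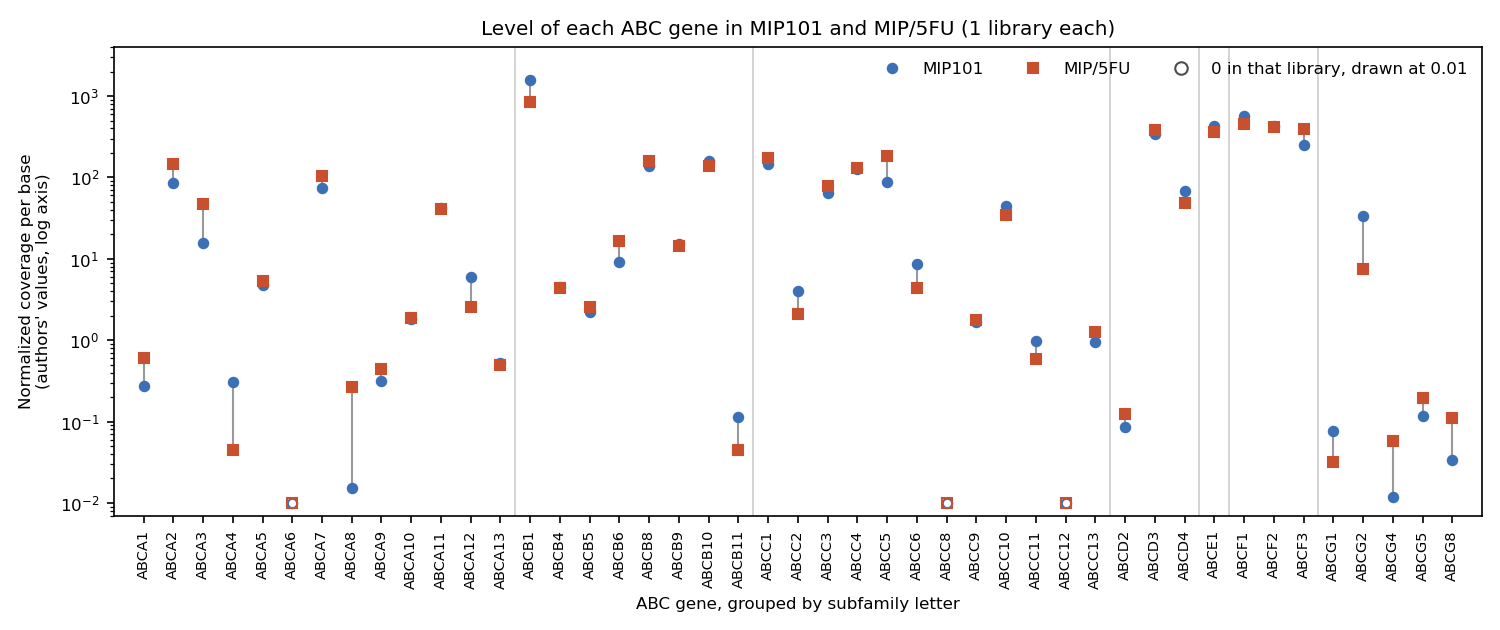
Normalized coverage per base (authors' values, log axis) of 45 of the 47 ABC genes in MIP101 (blue circles) and MIP/5FU (orange squares), 1 library each, ordered by subfamily letter and number; grey bars join the libraries and open symbols mark 0. ABCB1 stands highest in both, at 1553 and 837, and ABCA6, ABCC8 and ABCC12 are listed at 0 in both.

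The family was dominated by ABCB1, the P-glycoprotein that exports many hydrophobic drugs. ABCB1 had a normalized coverage per base of 1553 in MIP101 and 837 in MIP/5FU, ranking 286 and 642 among all 36953 genes. It took 35.6% of all ABC reads in MIP101 and 21.4% in MIP/5FU. The next highest coverages per base belonged to ABCF1 (572 and 450), ABCF2 (430 and 412), ABCE1 (429 and 364), ABCD3 (338 and 382) and ABCF3 (252 and 396), none of which is a plasma membrane drug pump. Together the 47 members held 2439 RPM in MIP101 and 2221 in MIP/5FU. Leaving ABCB1 out, the remaining 46 held 1570 and 1745 RPM, so the direction of the family total was set by 1 gene.

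Most compared members lay within 1.5-fold, but at both thresholds below the share of members counted was larger than that of all genes. With a threshold of 2-fold and an interval that leaves out a log2 ratio of 0, 3 of the 35 compared members were higher in MIP/5FU (ABCA3, ABCA1 and ABCC5) and 2 were lower (ABCG2 and ABCA12). Over all 15382 genes compared, the same rule counted 2.53% higher and 3.09% lower, 5.62% in all. At 1.5-fold, ABCB6, ABCA2 and ABCF3 joined the higher members and ABCB1, ABCC2, ABCC6 and ABCC11 the lower ones, which made 6 in each direction, against 8.67% higher and 8.14% lower over all genes, 16.8% in all. The other 23 members, 65.7% of those compared, lay within 1.5-fold, where 83.2% of all compared genes lay. The median log2 ratio of the members was -0.01, beside 0.03 over all genes, and the interval lay on both sides of 0 for 8 members. The family thus had no common direction: 17 members were above 0 and 18 below.

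**Figure D2:**
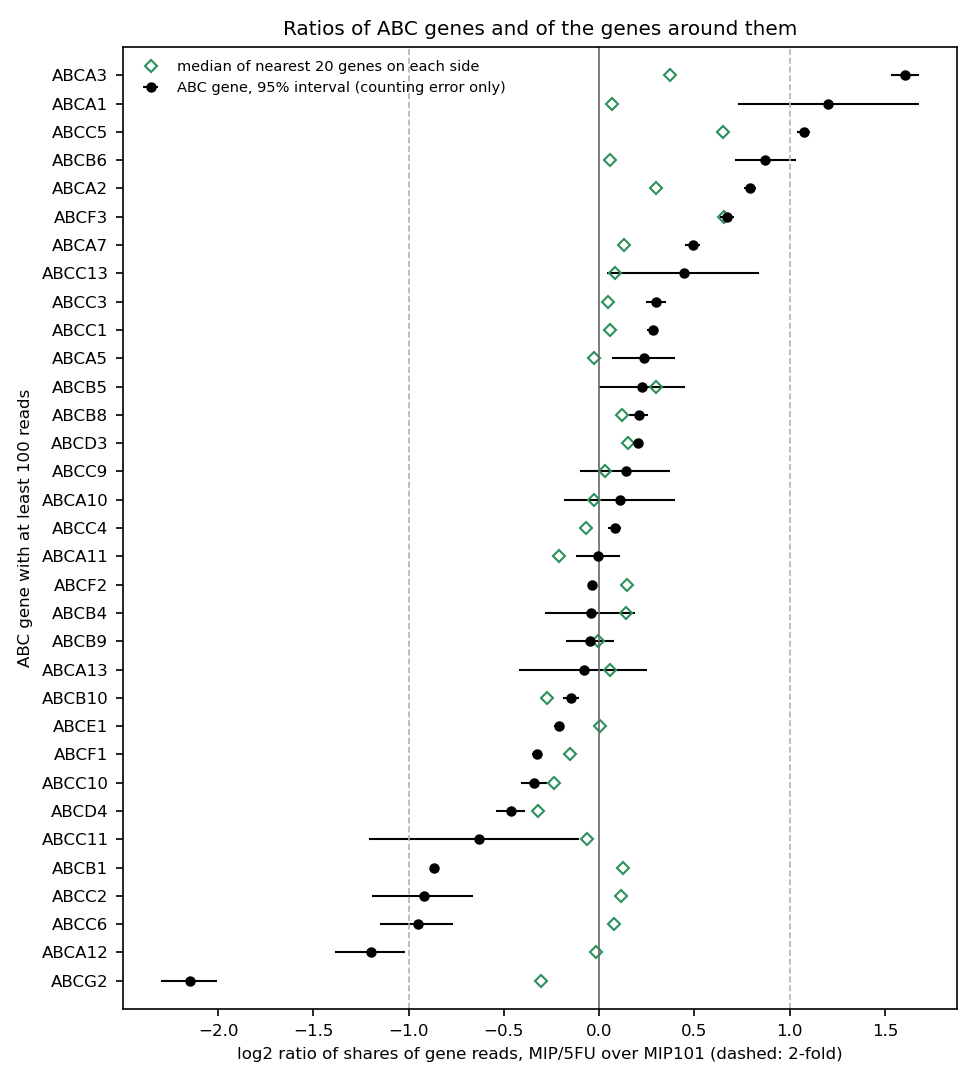
Log2 ratio of 33 of the 35 compared ABC genes (black, with its 95% interval for counting error) and the median log2 ratio of the nearest 20 compared protein-coding genes on each side of it (green diamonds); dashed lines mark 2-fold. ABCG2 lies lowest at -2.15 and ABCA3 highest at 1.60, and ABCF3 sits on its neighbours' median.

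ABCB1 (ENSG00000085563, hg18 chr7:86970884-87180506, minus strand) had 173986 reads in MIP101 against 52250 in MIP/5FU. After scaling it was 1.83-fold lower in the resistant clone (1.81 to 1.84). It remained the most covered ABC gene in both lines. All 29 of its exon regions with enough reads were below 0, with log2 ratios between -1.01 and -0.64. The 26 junctions between neighbouring exons from exon 3 onwards held 928 to 1480 reads in MIP101 and 268 to 451 in MIP/5FU. The junction from exon 2 to exon 3 (E2b_E3a) held fewer, 102 and 46. The drop was thus seen in all exon regions with enough reads, from exon 2 to exon 29. ABCB1 overlaps RUNDC3B and a second annotated gene, and the protocol marks no strand, so reads in the shared stretches cannot be assigned to 1 of them.

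ABCB1 has 2 annotated transcription starts, and the coverage of its first exons bears on which one the reads come from. Both RefSeq promoter windows (GRCh38.p14, chromosome 7, minus strand) are shown, each 300 bases long, with the bases before the annotated start in lower case and the bases from the start onwards in capitals. The upstream window spans chr7:87713246-87713545 and the downstream window chr7:87600835-87601134.
ABCB1 upstream start: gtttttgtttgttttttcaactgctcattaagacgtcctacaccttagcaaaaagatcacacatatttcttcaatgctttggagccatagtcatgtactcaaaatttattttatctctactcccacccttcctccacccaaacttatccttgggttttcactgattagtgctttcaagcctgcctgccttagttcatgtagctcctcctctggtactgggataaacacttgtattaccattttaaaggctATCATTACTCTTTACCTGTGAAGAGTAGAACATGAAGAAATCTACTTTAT
ABCB1 downstream start: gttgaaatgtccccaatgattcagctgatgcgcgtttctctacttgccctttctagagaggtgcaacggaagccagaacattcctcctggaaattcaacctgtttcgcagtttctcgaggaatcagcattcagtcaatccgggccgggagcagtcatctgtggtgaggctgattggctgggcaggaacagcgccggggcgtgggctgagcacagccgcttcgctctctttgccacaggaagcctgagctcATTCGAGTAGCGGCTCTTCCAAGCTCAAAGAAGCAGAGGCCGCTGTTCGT

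Exon 1, which belongs to the upstream start, had a coverage per base of 0.02 in MIP101 and 0.02 in MIP/5FU, and the junction from exon 1 to exon 2 had 0 reads in both. Exon 3 had 711 and 456, and exons 4 to 28 had 1850 and 992. Exon 2 of the files begins at base 57 of the downstream window. Its first 106 bases (exon region 2a) had 10.0 and 2.78, and the next 148 (exon region 2b, from base 163 of the window, 88 bases before the RefSeq start) had 720 and 451. Coverage therefore began around the downstream start in both lines, and reads from the upstream exon were near 0 in both. The junction from exon 2 to exon 3 (E2b_E3a) had only 102 and 46 reads, against 1324 and 442 from exon 3 to exon 4. The share of ABCB1 transcripts that begin in exon 2 was not tested. The 88 bases before the start are counted in the average of region 2b. Relative to the gene, region 2b had a log2 difference of 0.22 (interval at an error level of 0.1%: 0.02 to 0.41), which is well under 2-fold.

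Promoter motifs of 5 or 6 letters were searched on both strands of the whole windows, and no motif contains another. The CCAAT box (CCAAT or ATTGG) was found at 2 places in the downstream window, starting 79 and 238 bases before the start, and at none in the upstream one. This motif is in 34.6% of all 35116 RefSeq windows of this length and in 12 of the 53 windows of the 35 ABC genes that matched by symbol. The GC box (GGGCGG or CCGCCC), in 45.0% of all windows, and the TATA box (TATAAA or TTTATA), in 11.5%, had no match in either ABCB1 window. A match is a description of letters and not a binding site.

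**Figure D3:**
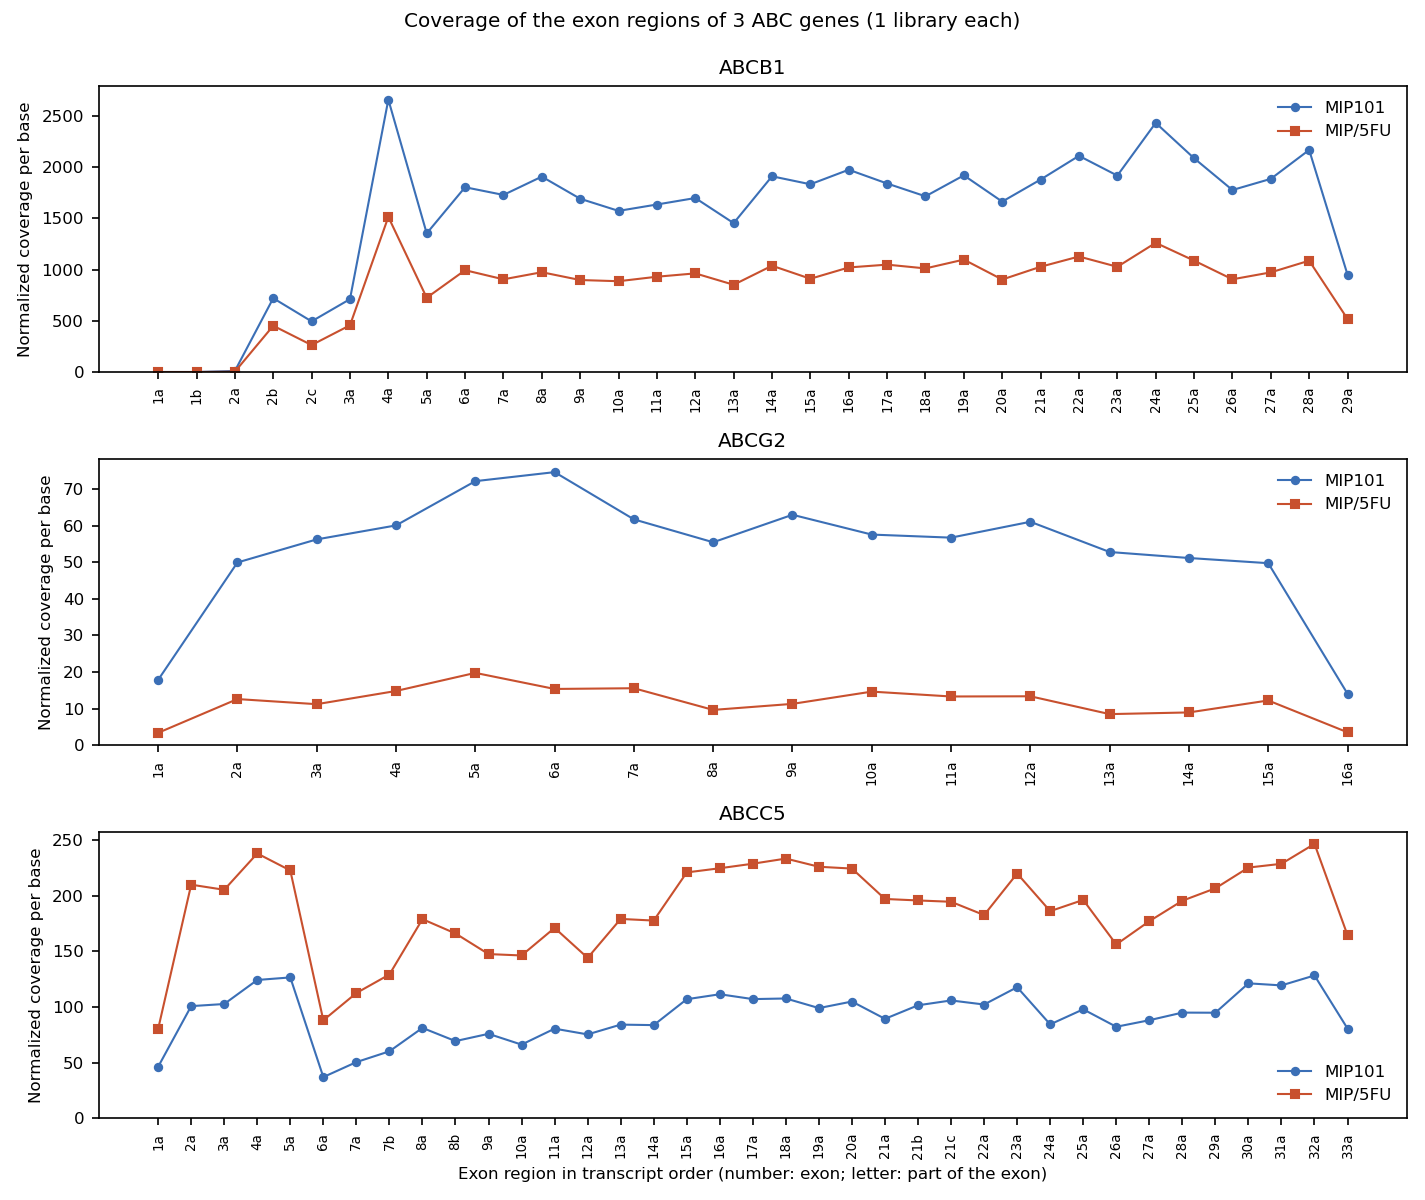
Normalized coverage per base of each exon region, in transcript order, of ABCB1, ABCG2 and ABCC5 in MIP101 (blue circles) and MIP/5FU (orange squares), 1 library each. ABCB1 regions 1a and 1b lie at 0 on this axis in both lines, ABCG2 is lower in MIP/5FU in all 16 regions, and ABCC5 is higher in MIP/5FU throughout.

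One ABCB1 junction joins exon 11 directly to exon 28, leaving out 16 exons, and has no support in Ensembl, mRNA or EST records per the files. It had 64 reads in MIP101 against 9 in MIP/5FU. The junction sequences were built from the exon ends of the GENCODE 29 transcript, after exon and intron lengths were matched to the files, and are printed with the upstream exon in lower case and the downstream exon in capitals. On hg18, minus strand, E11a_E12a spans chr7:87017800-87018007, E11a_E28a chr7:86973265-87018007 and E27a_E28a chr7:86973265-86976557.
ABCB1 E11a_E12a: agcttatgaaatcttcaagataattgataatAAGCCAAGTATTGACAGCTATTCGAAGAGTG
ABCB1 E11a_E28a: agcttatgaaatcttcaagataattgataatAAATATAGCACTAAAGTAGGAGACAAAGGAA
ABCB1 E27a_E28a: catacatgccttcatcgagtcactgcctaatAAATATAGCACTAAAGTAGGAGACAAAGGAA

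The reads on E11a_E28a covered only 36 of its 62 bases in each library, at 35.9 and 36.0 bases per read. The reads therefore lay on the same stretch. The canonical junction E11a_E12a had 1176 and 362 reads that covered all 62 bases, and E27a_E28a had 1409 and 391 that did so too. The ends of exons 11 and 27 share their last 4 bases and 15 of their last 31. ABCC5 has a junction of the same kind, E8a_E29a, which leaves out 22 exons without any record: its 7 and 15 reads covered 35 of 62 bases at 35.0 bases per read. What placed these reads was not tested. There were 2 ABCB1 junctions that leave out 1 exon and had reads over most of their length. E6a_E8a, with 19 and 4 reads, made up 1.73% (Clopper-Pearson 95% interval 1.04 to 2.69) and 1.22% (0.33 to 3.09) of its own reads plus the mean of the 2 junctions that include the exon, and E20a_E22a, with 25 and 4, made up 2.11% (1.37 to 3.10) and 1.05% (0.29 to 2.67). The intervals of the libraries overlap at both.

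The member with the lowest ratio among the 35 compared was ABCG2, the breast cancer resistance protein, a half-transporter that exports many anticancer drugs and urate. ABCG2 (ENSG00000118777, hg18 chr4:89230441-89299035, minus strand) had 3392 reads in MIP101 against 419 in MIP/5FU, with a coverage per base of 33.4 and 7.46. It was 4.43-fold lower in the resistant clone (4.01 to 4.92). All 16 of its exon regions were lower in MIP/5FU, with log2 ratios between -2.64 and -1.87. Exons 2 to 15 had coverages per base of 49.8 to 74.7 in MIP101 and 8.48 to 19.8 in MIP/5FU. The authors called it expressed in both lines, with reads over 81.0% of its bases in MIP/5FU and 100% in MIP101. The 4 other members of subfamily G move sterols (ABCG1, ABCG5 and ABCG8) or are brain genes (ABCG4). They had 1 to 9 reads in each library and were not compared.

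Subfamily C holds the multidrug resistance proteins, which export glutathione, glucuronide and nucleotide conjugates. Of its 12 members 10 were compared. ABCC5 exceeded 2-fold in the direction of MIP/5FU and no member did so in the other, 6 had ratios above 0 and 4 below, and the median log2 ratio was 0.11. ABCC5, or MRP5, exports cyclic nucleotides and nucleotide analogs. ABCC5 (ENSG00000114770, hg18 chr3:185120420-185218421, minus strand) had 14409 reads in MIP101 against 16614 in MIP/5FU, and a coverage per base of 88.0 and 182. It was 2.10-fold higher (2.06 to 2.15) and moved from rank 12 to rank 7 among the members. All 36 exon regions with enough reads were above 0, with log2 ratios from 0.80 to 1.26.

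ABCC5 also made a short transcript in both lines, which leaves the main transcript after exon 5 and ends in exon 8. The junctions that carry either form share the end of exon 5, printed in lower case, and differ in the downstream exon, printed in capitals. On hg18, minus strand, E5a_E9a spans chr3:185183459-185188282 and E5a_E7a chr3:185185830-185188282.
ABCC5 E5a_E9a: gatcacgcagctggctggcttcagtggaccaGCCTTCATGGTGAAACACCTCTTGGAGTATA
ABCC5 E5a_E7a: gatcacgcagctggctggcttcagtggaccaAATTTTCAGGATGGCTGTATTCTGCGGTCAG

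The long-form junction E5a_E9a had 48 reads in MIP101 against 33 in MIP/5FU. The junctions E5a_E7a and E5a_E6a, which lead into exons 6 to 8, had 8 and 1 reads in MIP101 and 13 and 4 in MIP/5FU. The long form thus made up 84.2% (72.1 to 92.5) of reads leaving exon 5 in MIP101 and 66.0% (51.2 to 78.8) in MIP/5FU, and the intervals overlap. Exon region 8b, 1054 bases without coding sequence that only the short transcript contains, had a coverage per base of 69.3 in MIP101 and 166 in MIP/5FU. That lay below exons 2 to 5 (113 and 218) and exons 9 to 32 (94.8 and 193). Exon regions 6a to 7b lay lower, with 37.0 to 60.1 in MIP101 and 88.0 to 129 in MIP/5FU. Whether all reads on region 8b come from the short transcript was not tested, so its coverage gives no share of the short form. The log2 ratio of region 8b exceeded that of the gene by 0.21 (interval at an error level of 0.1%: 0.05 to 0.38). Junction reads of the short form were thus present in both lines. The difference of region 8b from the gene was far under the 2-fold needed to be counted.

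The other conjugate pumps differed less. ABCC1 (MRP1), the most covered of subfamily C in MIP101, had a coverage per base of 145 and 173 and a log2 ratio of 0.28. ABCC4, which exports cyclic nucleotides and prostaglandins, had 125 and 130 with a ratio of 0.08, and ABCC3, a basolateral pump of glucuronides, 64.1 and 77.6 with 0.30. ABCC10 had 43.9 and 34.1 with a ratio of -0.34. ABCC2, the apical pump of bilirubin glucuronide, had 530 reads in MIP101 against 153 in MIP/5FU and was 1.89-fold lower (1.58 to 2.29). ABCC6, whose loss causes pseudoxanthoma elasticum, had 1015 and 287 reads and was 1.94-fold lower (1.70 to 2.22). Under TMM or median-ratio scaling its log2 ratio of -0.95 became -1.002 or -1.008, so it was then counted at 2-fold. ABCC6 has near-identical pseudogene copies, so the share of its reads that belongs to it is uncertain.

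The rest of subfamily C had few or no reads. ABCC8, the sulfonylurea receptor of beta cells, and ABCC12 were listed at 0 reads in both libraries, as was ABCA6. NFE2L2, a stress-response factor that nearly all cells express, was listed at 0 too, so no limit on expression was drawn from a listed 0. ABCC11, an apocrine gland pump, had 111 reads in MIP101 against 39 in MIP/5FU, 1.55-fold lower (1.07 to 2.31), and overlaps LONP2, from which its reads cannot be told apart by strand.

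Subfamily A consists of large lipid transporters. Of its 13 members 9 were compared. ABCA3 and ABCA1 exceeded 2-fold upwards in the resistant clone and ABCA12 downwards, with a median log2 ratio of 0.23. ABCA3 loads surfactant lipids into lamellar bodies of the lung. ABCA3 (ENSG00000167972, hg18 chr16:2265880-2330748, minus strand) had 2399 reads in MIP101 against 4000 in MIP/5FU, with a coverage per base of 15.7 and 46.8. It was 3.04-fold higher (2.89 to 3.20), the highest ratio among the 35 compared members. All 32 exon regions with enough reads were above 0, with log2 ratios from 1.24 to 2.03. Exons 3 to 33 had coverages per base of 11.1 to 21.96 in MIP101 and 38.2 to 62.0 in MIP/5FU.

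ABCA12, which fills the lamellar granules of skin cells with lipid, went the other way. ABCA12 (ENSG00000144452, hg18 chr2:215504522-215711396, minus strand) had 1258 reads in MIP101 against 300 in MIP/5FU and was 2.30-fold lower (2.02 to 2.62). The authors called 53 of its 54 exon regions expressed in MIP101 and 5 in MIP/5FU, the library with fewer reads. The part of depth in these calls was not tested. Only 4 of its regions had enough reads to compare, and all 4 were below 0. ABCA12 had a coverage per base of 6.0 and 2.59. ABCA1, which passes cholesterol to apolipoprotein A1, had only 69 reads in MIP101 against 87 in MIP/5FU. Its 2.30-fold higher ratio (1.66 to 3.20) rests on a coverage per base of 0.27 and 0.61, and the authors called it expressed in neither line.

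ABCA2 and ABCA7, the most covered of subfamily A, were higher by less than 2-fold. ABCA2, a lysosomal lipid transporter, had 16554 and 15733 reads and was 1.73-fold higher (1.70 to 1.77), and ABCA7, a phospholipid transporter, had 11597 and 8932 and was 1.41-fold higher (1.37 to 1.44). ABCA5, a lysosomal member, had a coverage per base of 4.72 and 5.41. Its neighbours in the chromosome 17 cluster, ABCA6, ABCA8, ABCA9 and ABCA10, were called expressed in neither line.

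In subfamily B apart from ABCB1, mitochondrial members were the most covered. ABCB10, linked to haem synthesis, had a coverage per base of 158 in MIP101 and 140 in MIP/5FU, and ABCB8 138 and 157. Their log2 ratios were -0.15 and 0.21. ABCB6, a porphyrin transporter, had 630 reads in MIP101 against 632 in MIP/5FU, and with the difference in depth was 1.83-fold higher (1.64 to 2.05). ABCB4, the phosphatidylcholine floppase of bile and nearest relative of ABCB1, had 422 and 224 reads and a log2 ratio of -0.04. It lies next to ABCB1 on chromosome 7 and is similar in sequence, so the split of reads between them is uncertain. ABCB9, a lysosomal peptide transporter, had a ratio of -0.05. ABCB11, the bile salt export pump, had 12 and 3 reads.

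Subfamily D serves peroxisomes and lysosomes. ABCD3 (PMP70), which imports branched-chain acyl-CoA into peroxisomes, had a coverage per base of 338 and 382 and a log2 ratio of 0.20. ABCD4, which exports cobalamin from lysosomes, had 68.4 and 48.7 with a ratio of -0.46. ABCD2 had 8 and 6 reads.

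The ribosomal members were high and differed little, except ABCF3. ABCE1, which splits ribosomes after termination, had a log2 ratio of -0.21, ABCF1, a partner of the initiation factor eIF2, -0.33, and ABCF2 -0.03. ABCF3 had 14297 reads in MIP101 against 12479 in MIP/5FU and was 1.59-fold higher (1.55 to 1.63). ABCF3 (hg18 chr3:185386678-185394487) lies near ABCC5 on the same arm of chromosome 3.

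The genes around each member were compared with it, a property that the choice of members did not use. The median log2 ratio of the nearest 20 compared protein-coding genes on each side was 0.65 for both ABCC5 and ABCF3, the farthest from 0 of any member. ABCF3 itself stood at 0.67, on that median, and ABCC5 at 1.07, above it. ABCC5 and ABCF3 lie near each other, so their windows share genes and their medians are not separate observations. Other members that lie close together, such as ABCA5 and ABCA10, share neighbours too. For ABCG2 the neighbours' median was -0.31 against -2.15 for the gene, for ABCA3 0.37 against 1.60 and for ABCA2 0.30 against 0.79. For ABCB1 it was 0.12 against -0.87, for ABCB6 0.05 against 0.87, for ABCA12 -0.02 against -1.20 and for ABCC2 0.12 against -0.92. ABCC6 had 0.08 against -0.95, ABCA1 0.07 against 1.20 and ABCC11 -0.06 against -0.63. The ratios of these genes stood away from the medians around them. In all, 23 of the 35 members lay on the same side of 0 as their neighbours (65.7%), beside 64.5% of the 14170 compared protein-coding genes under the same rule. The part of the surrounding genes' shift in a member's ratio was not tested.

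Several members with few reads had them in 1 place. Of the 7 compared members that the authors called expressed in neither line, ABCC13 had 100% of its exon coverage in a single exon region in both libraries, ABCC9 98.1% and 95.9%, ABCA13 81.0% and 85.5%, ABCB5 52.0% and 50.9% and ABCA10 50.2% and 49.0%. The other two were ABCA1, at 51.6% and 43.9%, and ABCC11, at 11.5% and 7.76%. Reads reached 4.23% of the bases of ABCC13 and 19.2% of those of ABCC9 in MIP101. ABCC9 encodes a sulfonylurea receptor of vascular and heart muscle, and ABCC13 is regarded as a pseudogene. Reads at these genes are thus not evidence of a whole transcript. ABCA11, a name now given to a pseudogene, was called expressed in both lines and overlaps ZNF721. It had 72.7% and 77.6% in 1 of its 3 exon regions, but that region is 1539 of its 1815 bases. Reads reached 100% of its bases in both libraries, so its coverage was not in 1 place.

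**Figure D4:**
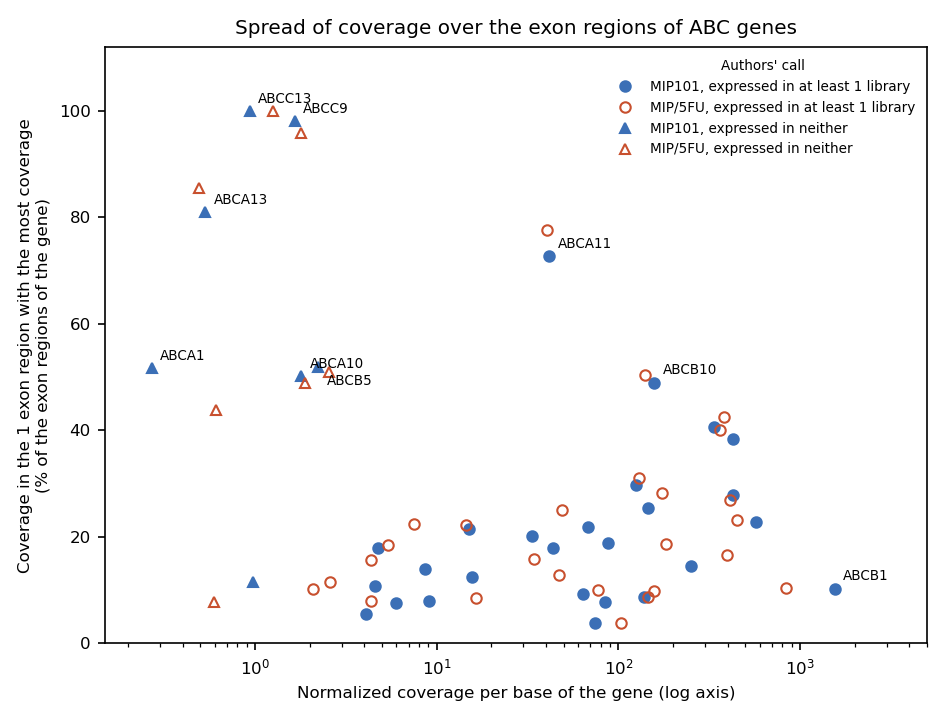
Share of a gene's exon coverage that lies in its 1 most covered exon region (percent) against the gene's normalized coverage per base (log axis), for 33 of the 35 compared ABC genes in MIP101 (filled) and MIP/5FU (open); circles are called expressed by the authors in at least 1 line and triangles in neither. ABCC13 and ABCC9 lie near 100% at low coverage, and ABCB1 at 10.3% and 10.4%. The share does not take the length of the region into account.

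The 9 members with 1 or more reads but too few to compare had 4 to 88 reads over both libraries. Among them ABCA4, the retinoid transporter of photoreceptors, with 52 reads in MIP101 against 4 in MIP/5FU, and ABCA8, with 2 and 19, had intervals away from 1: ABCA4 was 6.39-fold lower (2.62 to 27.1) and ABCA8 14.2-fold higher (4.18 to 153). Both were singled out after their values were seen. Their coverage per base was at most 0.31 in either line.

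Splicing was compared by the splicing index, in which the log2 ratio of the gene is subtracted from that of its exon region, junction, boundary or transcript. It was counted where it was at least 1 in size and its interval at an error level of 0.1% left out 0. None of 562 ABC exon regions, 103 exon-intron boundaries and 30 transcripts was counted in either direction. Over all genes the index counted 0.158% of exon regions as relatively higher in MIP/5FU and 0.108% as lower, 0.738% and 0.119% of boundaries, and 0.492% and 0.19% of transcripts. Of 480 ABC junctions none was higher and 1 was lower, against 0.055% and 0.0988% of all junctions.

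Junctions that leave out exons held 1.499% of ABC junction reads in MIP101 and 2.01% in MIP/5FU, below the 4.25% and 4.31% of all genes. ABCB1 weighs heavily in these pooled shares. Its 26 junctions between neighbouring exons from exon 3 onwards had a median of 1205.5 reads in MIP101 and 368 in MIP/5FU. The shares were not computed without ABCB1. In 3 members the skipping form was nearly the only one in both lines: ABCD3 from exon 8 to exon 10, with 263 and 147 reads against 10 and 4 into exon 9, ABCC1 from exon 19 to exon 21, with 120 and 78 against 1 and 0 into exon 20, and ABCB8 from exon 11 to exon 13, with 86 and 64. In ABCB8 the junctions into and out of the skipped exon had 0 reads, and the Clopper-Pearson 95% interval of the skipping share runs from 95.8% in MIP101 and 94.4% in MIP/5FU up to 100%. All 3 are annotated in Ensembl.

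Partners and regulators of ABC proteins were read from lists of other genes. Of the 3 family members under other symbols, CFTR, the chloride channel, had 204 RPM in MIP101 and 200 in MIP/5FU. TAP1 and TAP2, the peptide transporter of antigen presentation, were 1.55-fold (1.49 to 1.62) and 1.51-fold (1.45 to 1.57) higher in MIP/5FU, and none of the 3 reached 2-fold. Of 18 nuclear receptors and other regulators 14 were compared. None was 2-fold higher and 1 was lower, beside 2.53% and 3.09% of all compared genes. The lower one was HNF4A, an enterocyte and hepatocyte factor, from 27.6 to 12.7 RPM, 2.17-fold lower (2.05 to 2.31). The xenobiotic receptors were scarce, NR1I2 (PXR) with 0 and 1 reads and NR1I3 (CAR) with 50 and 16. NFE2L2 and ESR1 were listed at 0 reads in both libraries, and whether mapping or annotation gave these zeros was not tested. Of 4 compared scaffold genes, PDZK1, which anchors apical transporters, was 5.00-fold lower (3.74 to 6.95), from 442 to 48 reads. In the sterol and lipid list 2 of 5 were counted higher, beside 2.53% of all compared genes. They were APOE at 2.74-fold (2.16 to 3.49), with only 119 and 179 reads, and LCAT at 2.07-fold (1.80 to 2.38), with 380 and 431. NPC1 also had a ratio above 0, while NPC2 and SOAT1 had ratios below 0. No gene reached 2-fold in the lists for peptide loading (4 compared), potassium channel pores (2), peroxisome membrane assembly (3), iron-sulfur and haem partners (8), ribosome recycling and initiation (7) and cobalamin (3).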

How the data were processed

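Gene, junction and boundary files hold raw read counts as deposited, which the authors did not normalize. All files hold coverage as deposited: the authors summed bases of reads over each feature and gave a normalized coverage per base. Percent of bases covered and the expressed call are the authors' values too, per the file headers. Features come from Ensembl release 53, per the file names, mapped to build hg18, per the submitters' processing notes. Aligner and settings are not given in the sources used here. Random hexamers primed the cDNA, which went through 10 cycles of PCR, per the labels' protocols. No step described there marks strand; 13 members overlap another gene.

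Members and gene lists were chosen with earlier results of these data known. Ratios were computed on the whole gene table, where a gene had 100 or more reads summed over the libraries. The splicing index was computed on all features of genes with 200 or more summed reads and no fewer than 10 per library. Exon regions and transcripts needed 50 summed reads, junctions and boundaries 20. Exon region and transcript files give no read counts, so coverage was divided by the average bases of a read (40.4 for MIP101, 39.8 for MIP/5FU) to give read equivalents. Every member enters the counts, and some results for single members are not reported here. Members at 2-fold or 1.5-fold and the most covered have full values. Of the other lists, the genes counted at 2-fold are named in place of the 4 largest ratios that the design had set, with some others chosen after their values were seen. The junctions described besides the counted one were chosen after their values were seen. Promoter sequences are from RefSeq (GRCh38.p14) and junction sequences from GENCODE 29 transcripts. The gene and splicing computations were tested on simulated data with known changes. Alternatives were TMM factors or the median ratio as scaling, the authors' normalized coverage, other read minima, folds, pseudocounts and neighbour windows. TMM factors came from edgeR 4.0.16 in R 4.3.3. All else was computed in Python 3.11.15 (pandas 2.3.3, numpy 2.4.6, scipy 1.17.1) and drawn with matplotlib 3.10.9.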

Additional observations from a re-analysis of the deposited data

How the results depend on the processing

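No paired analysis was possible because each line has 1 library. TMM and median-ratio scaling shifted every log2 ratio by -0.049 and -0.055, and the largest move of a member was 0.085 with the authors' normalized coverage and 0.012 with a pseudocount of 1 read. No compared member changed sign under these 4 settings. The members counted higher at 2-fold numbered 3, and 2 to 4 under other scalings, units and read minima. With a 1.5-fold threshold they were 6 and with 4-fold 0. Those counted lower numbered 2, and 2 or 3 under other scalings, units and minima, 6 at 1.5-fold and 1 at 4-fold. Over all genes, 389 were higher and 475 lower. Without a read minimum these were 968 and 858, with at least 500 reads 220 and 299, at 1.5-fold 1334 and 1252, and at 4-fold 48 and 135, each change following from the rule. The members' median log2 ratio of -0.005 became -0.060 under median-ratio scaling and 0.096 without a read minimum. With 10 or 40 neighbours on each side, 26 and 24 members lay on their side of 0. The splicing counts were the same under a threshold of 1.5, the median of features as reference, and double the minimum of reads. Depth limits the 12 members under 100 reads and all junction ratios on few reads.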
